A study of Homo sapiens with 36 samples.

Results

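The acetylated histone mark H3K27ac was compared in POS cells after 14 days in trametinib and at day 0. POS cells are the EpCAM+ CD49f+ subpopulation that was sorted from SUM-229PE at low passage. The line comes from a pleural effusion and models triple-negative breast cancer. The comparison holds 4 of the 36 samples of the series, which are the 2 day 14 libraries (10 nM trametinib) and the 2 day 0 libraries, chosen by their labels. Day 0 is called a DMSO control in the name of the table. The series also treated POS cells for 24 hours at 30 nM, and sorted an EpCAM- CD49f- subpopulation, NEG. NEG cells were profiled at day 0 and after 14 days in 10 nM trametinib. Cells called untreated below, POS or NEG, are those labelled acute DMSO. All groups come from 1 cell line, and the labels do not say whether cells were sorted again at day 14 or whether replicates were separate cultures. P-values therefore rest on the spread of these libraries, which may be technical. No day 14 group without drug was used here, and drug and time in culture cannot be told apart.

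Trametinib blocks MEK, the kinase that activates ERK. ERK drives growth by inducing early transcription factors, among them subunits of AP-1 and ETS family members, and it induces its own brakes, the DUSP phosphatases and the SPRY and SPRED proteins. In breast cancer cells, MEK inhibition is known to be followed by increased expression of receptor tyrosine kinases, which can restart signalling. H3K27ac marks active promoters and enhancers, so a gain or loss of the mark points to an element and not to the gene that it serves. In bulk chromatin, fewer cells that carry the mark and less mark per cell cannot be told apart.

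Of the 130 genes listed for this comparison, 92 had a promoter sequence in the RefSeq table, and 21 of those had a tested region within 2 kb of the gene's start. Those regions numbered 22. Beside 39.5% higher and 38.2% lower among all tested regions, 8 of the 22 were higher and 11 lower at day 14. The promoters below belong to the pair of genes with the largest losses and the pair with the largest gains there, IL1A and DUSP6 for losses and EPHA4 and KLF4 for gains. Each is the stretch from 250 bases before to 50 bases after the start, in RefSeq's GRCh38.p14 and on the minus strand, at chr2:112784444-112784743 for IL1A, chr12:89352452-89352751 for DUSP6, chr2:221574153-221574452 for EPHA4 and chr9:107489720-107490019 for KLF4. The tested regions are in hg19 and were not lined up with these windows, so a window may lie in or beside a tested region. Capitals mark matches on either strand to the AP-1 motif TGANTCA, the ETS motif CCGGAA or the CRE motif TGACGTCA, and no matches overlapped in these windows.
IL1A: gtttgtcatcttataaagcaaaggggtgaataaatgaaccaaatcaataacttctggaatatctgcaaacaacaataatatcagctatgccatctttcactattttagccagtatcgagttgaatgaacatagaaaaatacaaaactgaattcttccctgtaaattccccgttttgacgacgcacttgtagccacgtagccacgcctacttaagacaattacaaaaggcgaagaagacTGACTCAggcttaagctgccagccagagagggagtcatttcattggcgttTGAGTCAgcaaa
DUSP6: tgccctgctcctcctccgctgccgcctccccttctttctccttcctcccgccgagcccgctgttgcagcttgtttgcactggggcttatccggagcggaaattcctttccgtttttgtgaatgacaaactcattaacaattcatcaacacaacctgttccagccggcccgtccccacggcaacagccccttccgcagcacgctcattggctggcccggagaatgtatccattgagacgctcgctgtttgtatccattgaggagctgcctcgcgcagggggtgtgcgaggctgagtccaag
EPHA4: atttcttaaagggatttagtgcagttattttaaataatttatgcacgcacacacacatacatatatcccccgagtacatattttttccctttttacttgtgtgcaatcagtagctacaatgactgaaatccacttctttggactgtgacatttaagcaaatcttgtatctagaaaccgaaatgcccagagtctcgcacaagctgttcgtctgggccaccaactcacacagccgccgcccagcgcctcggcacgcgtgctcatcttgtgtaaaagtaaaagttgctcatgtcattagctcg
KLF4: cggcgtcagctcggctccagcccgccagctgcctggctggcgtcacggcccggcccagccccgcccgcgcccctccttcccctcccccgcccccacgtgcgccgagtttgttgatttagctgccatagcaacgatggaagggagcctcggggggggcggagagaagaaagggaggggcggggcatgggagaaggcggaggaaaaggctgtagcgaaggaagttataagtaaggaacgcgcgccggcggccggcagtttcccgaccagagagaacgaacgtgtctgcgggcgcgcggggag

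The IL1A promoter held 2 matches to the AP-1 motif, which 7.76% of the 27305 promoters in the table hold. The other three windows held no match to that motif, and none of the windows held the ETS motif (17.6% of all promoters) or the CRE motif (1.98%). G and C made up 39.7% of the IL1A window, 58.3% of that of DUSP6, 43% of that of EPHA4 and 69% of that of KLF4.

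Most H3K27ac regions of POS cells differed between day 14 and day 0. Of 44343 regions listed, each 1001 bases wide, 44304 held enough counts to be tested and 34449 were called, which is 77.8% (edgeR's quasi-likelihood test, adjusted over all tested regions by Benjamini-Hochberg, threshold 0.05). H3K27ac was higher at day 14 in 17522 regions and lower in 16927. Changes of 2-fold or more numbered 11711 gains and 11707 losses, or 26.4% of tested regions in each direction. Past 4-fold there were 4786 gains and 4479 losses, past 16-fold 279 and 173, and past 32-fold 35 and 15. Gains of 2-fold or more brought weak regions to middle levels, with a median of 16.1 CPM (counts scaled to the size of the library) at day 14 and 4.2 CPM at day 0. Losses did the reverse, with medians of 4.77 CPM at day 14 and 18.3 CPM at day 0. The 4 values of a region did not overlap between the groups in 88.3% of tested regions. Of the 17522 gains, 15083 carry a peak name from a day 14 library, and of the 16927 losses 15899 carry one from a day 0 library.

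**Figure D1:**
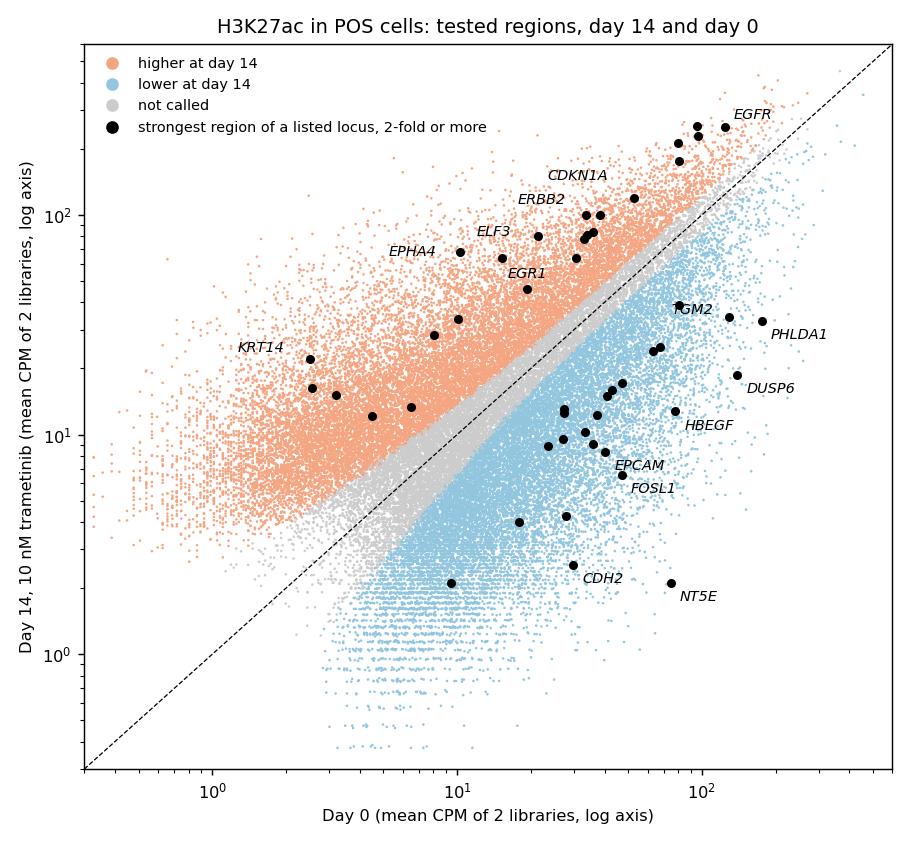
Mean H3K27ac of the 2 day 14 libraries (vertical, CPM, log axis) and of the 2 day 0 libraries (horizontal, CPM, log axis) for the 44304 tested regions, with equality dashed and 20 regions beyond the axes not drawn. Black points are the strongest regions of listed loci that changed 2-fold or more, with NT5E at 1.66 and 2.55 CPM at day 14 against 76.2 and 72.7 CPM at day 0.

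The libraries held 5472638 and 5172208 counts at day 14 and 5713610 and 3201383 at day 0, with median counts of 64 and 61 at day 14 and 68 and 43 at day 0. Replicates correlated across regions with r = 0.978 at day 14 and 0.967 at day 0, and in both pairs they differed by more than counting noise. The ratio of chi-square to its degrees of freedom was 1.15 for the day 14 pair and 1.92 for the day 0 pair, which spread more. The authors' deposited table has 23963 called regions, and 23961 of them were called here in the same direction.

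The epithelial label of POS was checked against 12 marker loci, all of which had a tested region. Their strongest regions summed to 1260 and 1265 CPM at day 14 and to 1012 and 837 CPM at day 0. Of 11 mesenchymal marker loci 10 had a region, and these summed to 251 and 272 CPM at day 14 and to 289 and 258 CPM at day 0. No marker region was at 0, and the lowest was 1.48 CPM. In untreated cells of other libraries, 10 of the epithelial marker loci had a value at their strongest region, and H3K27ac was higher in POS than in NEG at all 10, among them TP63 (log2 fold change 5.48 ± 0.32, SE), CDH1 (3.91 ± 0.26) and ITGA6, which encodes CD49f (3.47 ± 0.24). Of 9 mesenchymal marker loci with a value, 5 were lower in POS, among them TWIST1 (-2.51 ± 0.18) and COL1A2 (-2.19 ± 0.17). Another 3 were higher in POS, which were SPARC (5.15 ± 0.29), COL11A1 (2.5 ± 0.38) and ZEB1 (0.91 ± 0.18), and COL1A1 did not pass (0.27 ± 0.19). The tested regions are peaks of POS libraries and so lean to POS. Of all those with a match in untreated cells, 58.1% were higher in POS and 19.7% lower.

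The gains named here stood at places with little H3K27ac at day 0. The 15 named gains are the largest among 8755 regions that were called, did not overlap between groups and had a mean log2 CPM at or above the median of tested regions, at most 1 per 250 kb. A mean of log values can leave out regions that were near 0 at day 0, and 4 larger gains whose groups did not overlap are not among the 15. With the mean CPM as the level instead, chosen after the data were seen, 2 of the 15 gains and 6 of the 15 losses named here were named again, and log2 fold changes ran to 6.5 and -5.70. The 15 named gains had 52.6 to 183 CPM in the day 14 libraries and 1.07 to 7.18 CPM in the day 0 libraries, with log2 fold changes of 4.65 to 5.71. These values chose the regions and are a description. The first of these gains, chr22:31588475-31589476 at the RNF185 locus, a ubiquitin ligase gene, had 76.0 and 79.4 CPM at day 14 against 1.07 and 2.09 CPM at day 0. At chr12:94440749-94441750 the mark reached 183 and 180 CPM at day 14 and had 6.25 and 4.79 CPM at day 0. Their day 0 means, 1.58 and 5.52 CPM, lay under 6.15 CPM, the lower quartile of all tested regions at day 0. Their day 14 means, 77.7 and 181 CPM, lay above 26.4 CPM, the upper quartile at day 14.

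At chr14:22990829-22991830, within the T cell receptor alpha locus, there were 121 and 124 CPM at day 14 and 1.96 and 2.99 CPM at day 0. Of the 21 tested regions within 250 kb of it, 9 were higher and 5 lower, and chr14:22965984-22966985 had 63.3 and 62.3 CPM at day 14 against 0.714 and 0.598 CPM at day 0, a log2 fold change of 6.5 ± 0.28. The gain at chr4:86532239-86533240 lies at ARHGAP24, which encodes a Rac GTPase-activating protein, with 65.7 and 63.3 CPM at day 14 and 1.78 and 2.39 CPM at day 0. That at chr15:31306318-31307319 lies at TRPM1, an ion channel gene, with 84.7 and 79.2 CPM at day 14 and 3.03 and 2.09 CPM at day 0. The remaining gains of this rank, given by position, include chr1:31592810-31593811, chr5:157329986-157330987, chr3:152659640-152660641 and chr17:72903626-72904627. The centre of a JUNB region of untreated POS or NEG cells lay in 2 of the 15, against 54.3% of all gains of 2-fold or more.

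The losses named here took well marked regions to low levels. The 15 named losses, from 8578 regions that met the same criteria, had 1.66 to 6.09 CPM in the day 14 libraries and 51.4 to 152 CPM in the day 0 libraries, with log2 fold changes of -5.23 to -4.55. Another 5 regions whose groups did not overlap fell further and are not among the 15. The region chr6:86173901-86174902 lies at NT5E, which encodes CD73, the surface enzyme that makes adenosine from AMP. It had 1.66 and 2.55 CPM at day 14 and 76.2 and 72.7 CPM at day 0. At chr3:130935682-130936683, in the NEK11 locus, a kinase gene, there were 4.80 and 4.31 CPM at day 14 and 152 and 151 CPM at day 0. At chr5:150473033-150474034, by TNIP1, which encodes an inhibitor of NF-kappa-B signalling, there were 5.72 and 4.90 CPM at day 14 and 136 and 114 CPM at day 0. No overlap between the groups was required of these regions, and 88.3% of all tested regions had none. These values chose the regions and are a description.

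Losses at chr12:104981966-104982967, in CHST11, a chondroitin sulfotransferase gene, and chr14:71252238-71253239, by MAP3K9, a kinase gene, had log2 fold changes of -4.79 ± 0.21 and -4.78 ± 0.22 (SE). The first of the 15 losses, chr10:79497576-79498577, had 1.85 and 1.96 CPM at day 14 against 83.7 and 57.4 CPM at day 0, and another on chromosome 6, chr6:85607417-85608418, had 2.40 and 1.76 CPM against 76.0 and 67.0 CPM. Of the 15 losses, 14 held the centre of such a JUNB region, against 90.7% of all losses of 2-fold or more and 78.4% of all tested regions. JUNB is an AP-1 subunit, and its binding at day 14 was not analysed here.

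Called regions tended to go the way of their neighbours. Of neighbouring pairs up to 5 kb apart, centre to centre, with both regions called, 78.2% moved in the same direction, against 72.8% at 5 to 25 kb, 63.4% at 25 to 100 kb and 55.4% at 100 to 500 kb. Runs of 5 or more consecutive regions, at most 25 kb apart and all called one way, numbered 171 for gains (990 regions) and 190 for losses (1100 regions). With 0.5 of that distance allowed they numbered 27 and 49.

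The longest lost run was 16 regions over 168 kb at chr20:36678197-36846564, which spans TGM2, the gene of tissue transglutaminase, an enzyme that crosslinks matrix proteins. Its summed H3K27ac was 213 and 205 CPM at day 14 and 847 and 763 CPM at day 0, with a median log2 fold change of -1.94. Within it chr20:36796315-36797316 fell furthest, with 3.69 and 3.53 CPM at day 14 and 58.9 and 56.5 CPM at day 0. Next came 10 regions at PCED1B (chr12:47582506-47699017), with sums of 218 and 221 CPM at day 14 and 831 and 670 CPM at day 0, and 10 at FMNL2, a formin gene (chr2:153288098-153370641), with 65.9 and 63.7 CPM against 272 and 256 CPM. A run of 8 at chr1:94203941-94279616 had the lowest median among the 10 longest lost runs, -2.87, with 50.9 and 50.2 CPM at day 14 and 412 and 346 CPM at day 0.

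The longest gained run was 13 regions over 147 kb at chr11:27109264-27256742, at the locus of BBOX1, a gene of carnitine synthesis. It summed to 545 and 565 CPM at day 14 and 272 and 244 CPM at day 0, a median log2 fold change of 1.30. Runs of 11 lay in FHOD3, a formin gene (chr18:34123696-34292138), with 309 and 325 CPM at day 14 and 159 and 154 CPM at day 0, and beside SIK1, a salt-inducible kinase gene (chr21:44720929-44832680), with 363 and 343 CPM at day 14 and 141 and 121 CPM at day 0. The run of 9 at chr7:17677856-17746936 held the most mark at day 14 among the 10 longest gained runs, 734 and 775 CPM at day 14 against 149 and 173 CPM at day 0. Runs were chosen by these values, so the values are a description with no test.

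**Figure D2:**
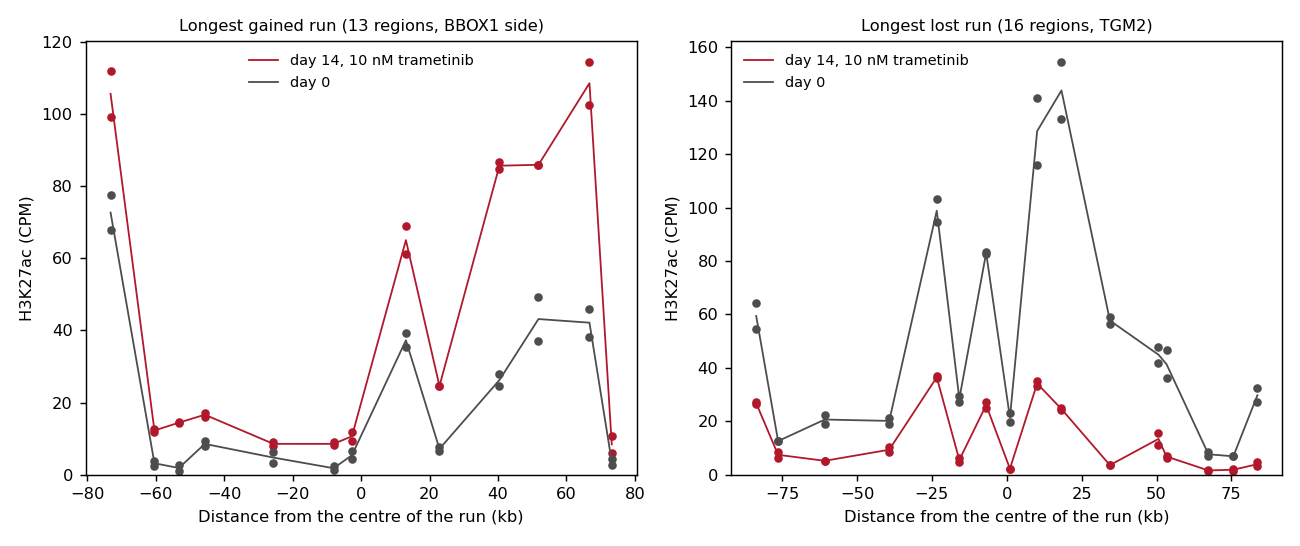
H3K27ac (CPM) in each library across the longest gained run (left, 13 regions at BBOX1) and the longest lost run (right, 16 regions over TGM2), by distance from the centre of the run in kb. Points are single libraries and lines join the means of the 2 day 14 (red) and 2 day 0 (grey) libraries, whose sums were 545 and 565 against 272 and 244 CPM on the left and 213 and 205 against 847 and 763 CPM on the right.

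Genes were listed by role and read at their loci, which are the gene's hg19 span, taken from general knowledge, and 20 kb on either side. Of 130 loci 111 held a tested region, and no region was tested at the other 19, among them SPRY2, SPRY4, JUNB, WNT5A, KIT, TFAP2C, SNAI2 and CDKN1B. A locus with no region in the table is not shown to lack the mark. At the 111 loci the strongest region, the one with the highest mean log2 CPM over the 4 libraries, was higher at day 14 in 45, lower in 38 and not called in 28. These counts stand beside 39.5% higher and 38.2% lower among all tested regions. By 2-fold or more, 23 strongest regions were higher and 24 lower. Ranked by mean CPM instead, the strongest region was another one at 8 loci, and 45 were higher, 41 lower and 25 not called. Scaled to the strongest regions of 5 housekeeping loci in place of all regions, 39 of the strongest-region calls were not made, with changes of at most 1.15 on the log2 scale in either direction, among them those of SPRED2, FOS, EREG, EGFR and CDKN1A. The housekeeping set was not stable, since its region beside ACTB itself changed by -2.74 ± 0.22 on the log2 scale. In 33 of the 81 loci with 2 or more regions some regions were higher and others lower. Other regions of a locus are given below where they differ most from the strongest, and were chosen after their values were seen.

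**Figure D3:**
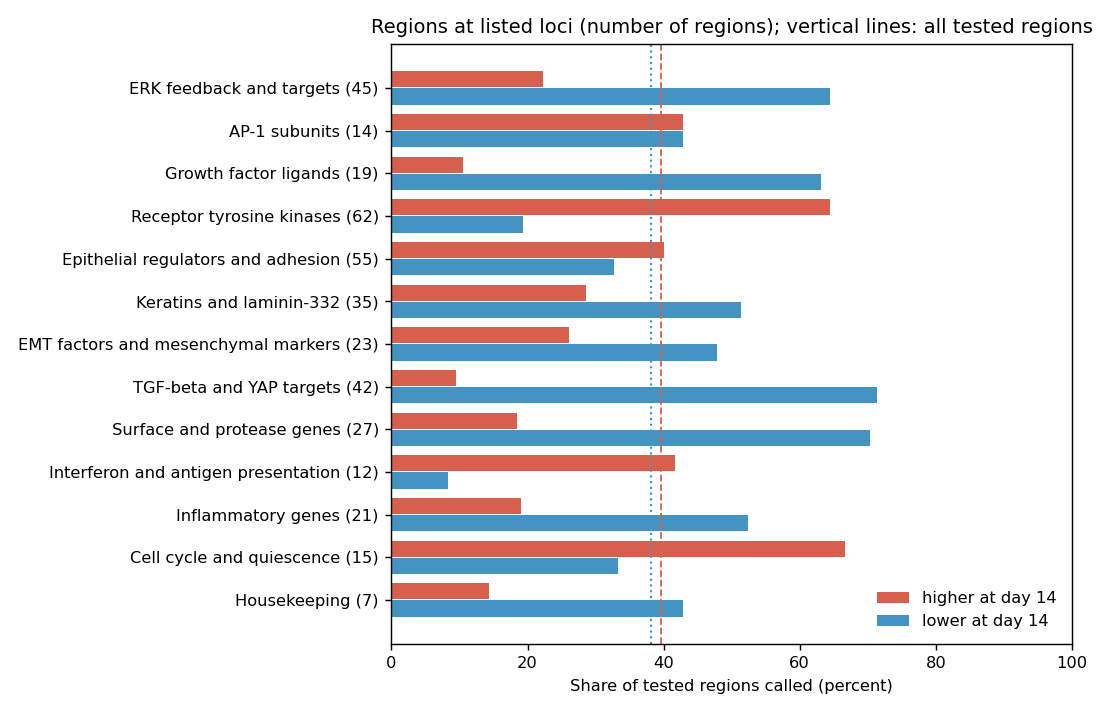
Share of tested regions (percent) at the loci of each list that was higher (red) or lower (blue) at day 14, with the number of regions in brackets. The vertical lines give the shares over all tested regions, 39.5% higher (dashed) and 38.2% lower (dotted), and receptor tyrosine kinases had 64.5% higher and 19.4% lower.

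**Figure D4:**
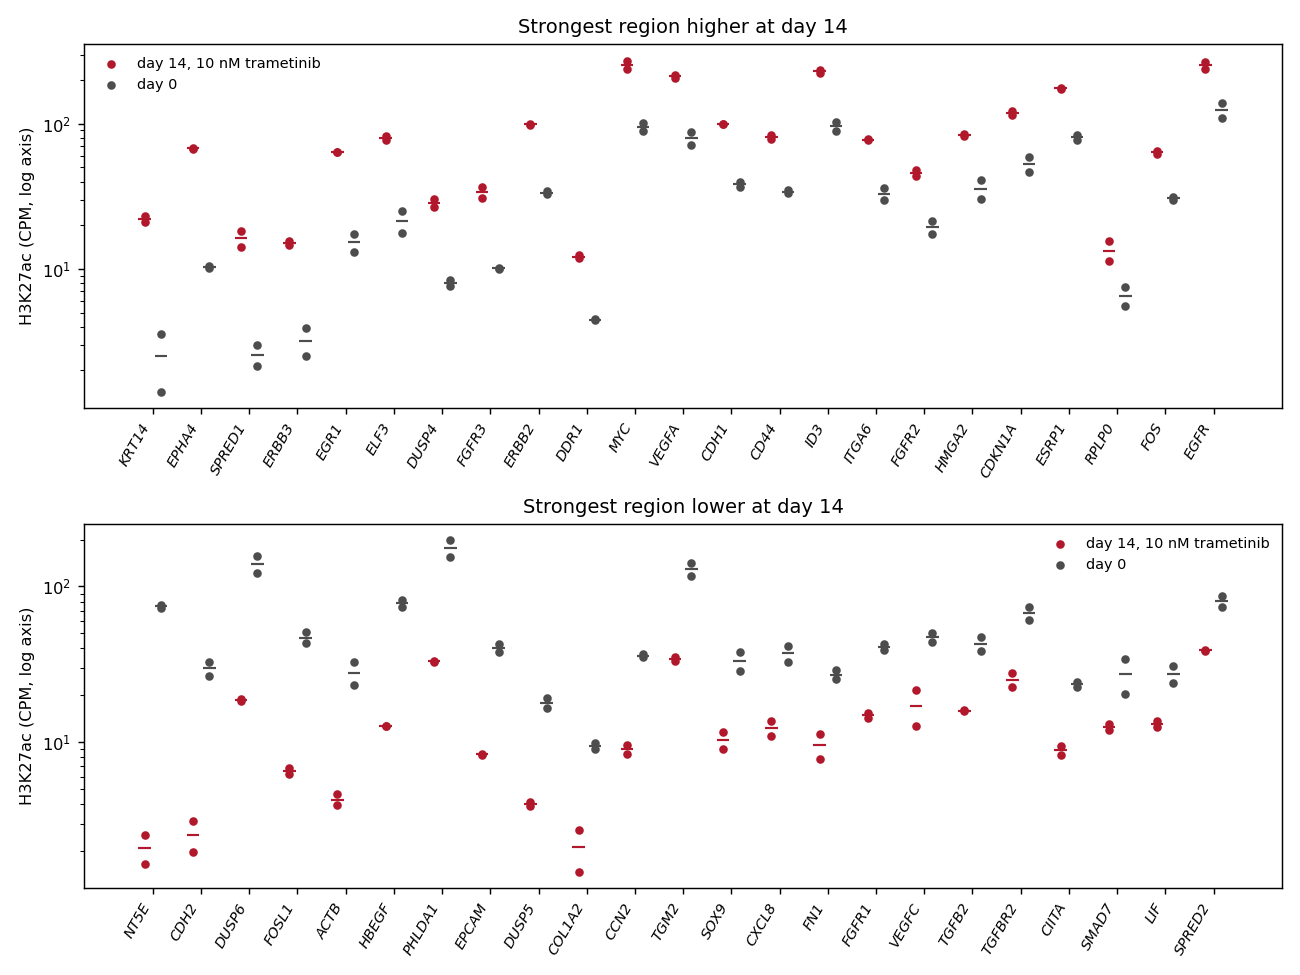
H3K27ac (CPM, log axis) in each library at the strongest region of the 23 loci that were higher (top) and of 23 of the 24 that were lower (bottom) by 2-fold or more, with day 14 in red, day 0 in grey and bars at the mean of 2 libraries. In none of the regions drawn did the 2 groups overlap, nor did they in 88.3% of all tested regions. The regions drawn were chosen by their change, so this is a description.

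At the loci of the brakes and targets of ERK, more regions lost H3K27ac than gained it. Of 45 regions at 14 of 16 loci, 29 were lower (64.4%, against 38.2% of all tested regions) and 10 higher (22.2%, against 39.5%). Their median log2 fold change was -0.77, against 0.03 over all tested regions. HMGA2 held 10 of the lower regions and SPRED2 held 8. By strongest region the loci were divided. DUSP4, SPRED1, ETV5, EGR1, CCND1, MYC and HMGA2 were higher, DUSP6, DUSP5, SPRED2, PHLDA1 and EPHA2 lower, and ETV4 and IER3 not called. At DUSP6, the phosphatase that inactivates ERK, chr12:89747873-89748874 had 18.3 and 19.0 CPM at day 14 and 158 and 122 CPM at day 0 (log2 fold change -2.92 ± 0.15, SE, edgeR's quasi-likelihood test, adjusted p = 1.8e-41). A second DUSP6 region, chr12:89763991-89764992, had 5.72 and 7.06 CPM at day 14 and 123 and 115 CPM at day 0. Both regions fell, and in both each day 14 library lay far under each day 0 library.

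At PHLDA1, a target induced by ERK signalling, the only region (chr12:76413977-76414978) had 33.0 and 32.9 CPM at day 14 and 198 and 154 CPM at day 0 (log2 fold change -2.42 ± 0.14, adjusted p = 1.5e-35). That of DUSP5, a nuclear ERK phosphatase, had 3.88 and 4.12 CPM at day 14 and 19.3 and 16.5 CPM at day 0. All 8 regions at SPRED2, an inhibitor of RAF activation, were lower, by log2 fold changes of -1.89 to -0.76. Of 12 regions at HMGA2, a chromatin protein gene, 10 were lower, but the strongest rose, with 82.0 and 84.5 CPM at day 14 and 41.0 and 30.5 CPM at day 0.

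Part of the list moved the other way. The single region of DUSP4, another nuclear ERK phosphatase, had 30.1 and 26.9 CPM at day 14 and 7.67 and 8.38 CPM at day 0 (log2 fold change 1.84 ± 0.19, adjusted p = 1e-16). SPRED1, the paralogue of SPRED2, had 14.2 and 18.2 CPM at day 14 and 2.14 and 2.99 CPM at day 0. At EGR1, an early growth response factor, the strongest region had 63.7 and 63.9 CPM at day 14 and 17.3 and 13.2 CPM at day 0. At MYC it had 273 and 237 CPM at day 14 and 101 and 89.4 CPM at day 0. ETV5, an ETS factor, was split, with 72.4 and 77.2 CPM at day 14 against 48.0 and 42.8 CPM at day 0 in its strongest region and 6.83 and 7.25 against 25.2 and 25.7 CPM in the other.

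AP-1 subunit loci were divided evenly, with 6 of 14 regions higher and 6 lower. That is 42.9% each way, near the 39.5% higher and 38.2% lower of all tested regions. FOSL1, which encodes FRA1, an AP-1 subunit that ERK stabilises, had 6.83 and 6.27 CPM at day 14 and 50.9 and 43.1 CPM at day 0 in its strongest region (chr11:65666000-65667001, log2 fold change -2.85 ± 0.18, adjusted p = 1.8e-33). FOS, the founding early gene, had 61.8 and 65.3 CPM at day 14 and 31.4 and 29.9 CPM at day 0. JUN was higher at its strongest region, within 2 kb of its start, with 90.1 and 82.1 CPM at day 14 and 76.2 and 53.2 CPM at day 0, a call that DESeq2 did not make and that was lost without either day 14 library or without day 0 replicate 2. It was lower at chr1:59228380-59229381, on the 3' side, with 2.40 and 4.31 CPM at day 14 and 57.3 and 46.4 CPM at day 0.

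Growth factor ligand loci mostly lost the mark, with 12 of 19 regions lower (63.2%, against 38.2% of all tested regions) and 2 higher (10.5%, against 39.5%). HBEGF, an EGFR ligand, had 12.7 and 12.7 CPM at day 14 and 81.7 and 73.9 CPM at day 0 at chr5:139702386-139703387 (log2 fold change -2.62 ± 0.16, adjusted p = 9.4e-36), while its region within 2 kb of the start did not pass, with 24.4 and 30.6 CPM at day 14 and 27.8 and 21.2 CPM at day 0. All 6 regions at VEGFC, a lymphatic growth factor, were lower, by log2 fold changes of -1.93 to -0.96. VEGFA, the vascular growth factor, was higher, with 218 and 208 CPM at day 14 and 87.8 and 71.2 CPM at day 0. EREG, an EGFR ligand, was lower (39.5 and 37.0 CPM at day 14, 76.6 and 74.2 CPM at day 0), and the strongest regions of its relatives AREG and TGFA did not pass.

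Receptor tyrosine kinase loci gained the mark more often than they lost it. Of 62 regions at 13 of 14 loci, 40 were higher (64.5%, against 39.5% of all tested regions) and 12 lower (19.4%, against 38.2%). The median log2 fold change of the 62 regions was 0.80. All 4 regions of ERBB2, the HER2 receptor gene, were higher. The strongest, chr17:37861904-37862905, had 100 and 98.8 CPM at day 14 and 34.4 and 32.6 CPM at day 0 (log2 fold change 1.56 ± 0.14, adjusted p = 8.1e-21). Another, chr17:37872546-37873547, had 44.7 and 43.9 CPM at day 14 and only 0.714 and 1.5 CPM at day 0. The single region of ERBB3, the partner of HER2, had 14.6 and 15.7 CPM at day 14 and 2.5 and 3.89 CPM at day 0. EGFR, with 4 of 7 regions higher and 1 lower, had 266 and 239 CPM at day 14 and 138 and 110 CPM at day 0 at its start.

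EPHA4, an ephrin receptor gene, had 66.8 and 68.6 CPM at day 14 and 10.2 and 10.5 CPM at day 0 at its start (chr2:222436883-222437884, log2 fold change 2.72 ± 0.17, adjusted p = 2.2e-34). The FGF receptors gained as well, with 4 of 5 regions higher at FGFR2 and both at FGFR3. FGFR2's strongest region had 48.2 and 43.5 CPM at day 14 and 21.4 and 17.4 CPM at day 0. At FGFR1, 2 of 3 regions were higher, but the strongest was lower, with 14.4 and 15.5 CPM at day 14 and 42.8 and 38.9 CPM at day 0. IGF1R, the insulin-like growth factor receptor gene, had 10 of 17 regions higher and 3 lower, while its strongest region did not pass. MET and AXL, further receptors named in drug adaptation, rose by 0.53 ± 0.13 and 0.59 ± 0.13 on the log2 scale at their strongest regions, and that of MET was not called without either day 14 library. PDGFRB's only region was lower, with 7.01 and 6.47 CPM at day 14 and 13.2 and 12.3 CPM at day 0.

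Epithelial regulator loci had 22 of 55 regions higher (40%, against 39.5% of all tested regions) and 18 lower (32.7%, against 38.2%). As a list they stood near these shares, but single loci moved clearly. ELF3, an epithelial ETS factor, had 82.1 and 77.8 CPM at day 14 and 25.0 and 17.6 CPM at day 0 (log2 fold change 1.86 ± 0.15, adjusted p = 1.6e-24). CDH1, the E-cadherin gene, had 99.7 and 99.6 CPM at day 14 and 36.6 and 39.8 CPM at day 0, with 4 of 7 regions higher and none lower. ITGA6 had 76.8 and 79.0 CPM at day 14 and 36.0 and 29.9 CPM at day 0. EPCAM, the other sorting marker, went down at its only region (chr2:47581664-47582665), with 8.31 and 8.43 CPM at day 14 and 38.2 and 42.5 CPM at day 0. SOX9, a progenitor factor, also went down, with 9.04 and 11.6 CPM at day 14 and 28.6 and 38 CPM at day 0. TP63, the basal lineage factor, had 5 of 15 regions higher and 4 lower, and its strongest region held 201 and 217 CPM at day 14 and 234 and 193 CPM at day 0 and did not pass.

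Keratin and laminin-332 loci had 10 of 35 regions higher (28.6%, against 39.5% of all tested regions) and 18 lower (51.4%, against 38.2%). KRT14, a basal keratin gene, had 23.3 and 21 CPM at day 14 and 1.43 and 3.59 CPM at day 0 in its only region (log2 fold change 3.29 ± 0.28, adjusted p = 2e-22). Its partner KRT5 had 209 and 200 CPM at day 14 and 161 and 118 CPM at day 0 at its start, a call lost without either day 14 library. KRT14 shares close sequence with neighbouring keratin genes, and how reads that map to several places were counted is not given in the sources used here. Of the 14 regions at LAMA3, which encodes a chain of the basement membrane protein laminin-332, 12 were lower. One of them, chr18:21407658-21408659, had 11.1 and 8.82 CPM at day 14 and 60.0 and 54.7 CPM at day 0. The region chr18:21544648-21545649, on the 3' side, rose, with 64.2 and 65.7 CPM at day 14 and 28.6 and 23 CPM at day 0.

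Mesenchymal loci had 11 of 23 regions lower (47.8%, against 38.2% of all tested regions) and 6 higher (26.1%, against 39.5%). CDH2, the N-cadherin gene, was lower in all 3 regions, and the strongest had 3.14 and 1.96 CPM at day 14 and 32.8 and 26.6 CPM at day 0 (chr18:25694526-25695527, log2 fold change -3.55 ± 0.24, adjusted p = 2.9e-30). FN1, the fibronectin gene, had 11.3 and 7.84 CPM at day 14 and 28.9 and 25.4 CPM at day 0. Both regions of VIM, the vimentin gene, were lower. The one with the higher mean CPM, chr10:17257386-17258387, had 5.17 and 8.04 CPM at day 14 and 82.4 and 77.8 CPM at day 0, a log2 fold change of -3.61, and the other had 21.4 and 20.2 against 38.7 and 33.5 CPM. SPARC, TWIST1 and COL1A1 were higher at their strongest regions by 0.53 to 0.59 on the log2 scale. DESeq2 did not make the call at TWIST1, that at SPARC was lost without day 14 replicate 2, and none of these calls was made with housekeeping factors. Of the other COL1A1 regions 2 were higher, but chr17:48296140-48297141 was lower, with 5.54 and 4.70 CPM at day 14 and 59.8 and 49.1 CPM at day 0 (log2 fold change -3.42 ± 0.19). COL11A1 had 0.49 at the region with the highest mean log2 CPM and -1.03 at that with the highest mean CPM. The regions of ZEB1 and ZEB2, repressors of E-cadherin, did not pass at their strongest.

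Loci of TGF-beta signalling and YAP targets had 30 of 42 regions lower and 4 higher. That is 71.4% lower and 9.52% higher, against 38.2% and 39.5% of all tested regions. The median log2 fold change of the 42 regions was -1.13. All 9 regions at TGFB2, a TGF-beta ligand, were lower, and the one within 2 kb of its start (chr1:218519766-218520767) had 11.3 and 10.0 CPM at day 14 and 57.5 and 52.9 CPM at day 0. All 3 at SMAD7, the feedback inhibitor of the pathway, were lower. CCN2, a YAP target, had 9.60 and 8.43 CPM at day 14 and 36.9 and 35.0 CPM at day 0 (log2 fold change -2.0 ± 0.17, adjusted p = 1.3e-21). TGFBR2, the type II receptor gene, was mixed, with 3 of 5 regions lower and 2 higher.

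Surface and protease genes had 19 of 27 regions lower (70.4%, against 38.2% of all tested regions) and 5 higher (18.5%, against 39.5%). All 8 at TGM2 and all 3 at NT5E were lower, and the strongest at TGM2 had 33.2 and 35.1 CPM at day 14 and 141 and 116 CPM at day 0. CD44, the hyaluronan receptor gene, gained at its strongest region, with 78.3 and 83.1 CPM at day 14 and 33.4 and 34.7 CPM at day 0. In chr11:35203621-35204622, also at CD44, there were 25.8 and 26.1 CPM at day 14 and 2.32 and 2.69 CPM at day 0. TGM2 and NT5E were put on this list with earlier results of these libraries known, so its count is not independent evidence.

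Inflammatory gene loci had 11 of 21 regions lower (52.4%, against 38.2% of all tested regions) and 4 higher (19.0%, against 39.5%). At CXCL8, the interleukin-8 gene, chr4:74591575-74592576 had 4.80 and 7.64 CPM at day 14 and 42.5 and 41.3 CPM at day 0. The region upstream of IL1A, the interleukin-1 alpha gene (chr2:113544219-113545220), had 2.58 and 2.74 CPM at day 14 and 29.4 and 27.2 CPM at day 0 (log2 fold change -3.41 ± 0.24). The other region within 2 kb of the gene's start, chr2:113541339-113542340, had 24.9 and 20.6 CPM at day 14 and 52.5 and 48.8 CPM at day 0 (-1.16 ± 0.14). IL1B and LIF were lower at their strongest regions and PTGS2, the COX-2 gene, was higher. Interferon and antigen presentation loci had 5 of 12 regions higher (41.7%), near the 39.5% of all tested regions, and 1 lower (8.33%, against 38.2%). The lower one was at CIITA, the class II transactivator gene, with 8.31 and 9.41 CPM at day 14 and 24.3 and 22.7 CPM at day 0. The gains at B2M, IRF1, IFIT1 and BST2 were 0.36 to 0.70, and DESeq2 did not call those at B2M, IFIT1 and BST2.

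Genes of cell cycle arrest and quiescence had 10 of 15 regions higher (66.7%, against 39.5% of all tested regions) and 5 lower (33.3%, against 38.2%). CDKN1A, which encodes the cyclin-dependent kinase inhibitor p21, was higher in all 3 regions. The strongest, chr6:36647345-36648346, had 115 and 123 CPM at day 14 and 59.2 and 46.4 CPM at day 0 (log2 fold change 1.15 ± 0.14, adjusted p = 8.2e-14), and chr6:36634140-36635141 had 109 and 118 CPM at day 14 and 20.5 and 20.9 CPM at day 0. ID3, an inhibitor of basic helix-loop-helix factors, had 224 and 235 CPM at day 14 and 104 and 89.7 CPM at day 0. KLF4, whose factor promotes arrest in epithelia, had 53.7 and 48.0 CPM at day 14 and 7.67 and 11.4 CPM at day 0 in the region within 2 kb of its start. The strongest KLF4 region was higher by only 0.32 ± 0.14, a call that DESeq2 did not make. Of the housekeeping loci only 5 of 10 had a region, 7 regions in all. Of these 3 were lower (42.9%, against 38.2% of all tested regions) and 1 higher (14.3%, against 39.5%). GAPDH held 124 and 123 CPM at day 14 and 138 and 91.8 CPM at day 0.

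POS cells had been profiled after 24 hours at 30 nM in other libraries, so dose and time both differ and the values are set side by side. Of 50345 regions tested there 52.7% were called, 26.7% higher and 26% lower than in DMSO (n = 3 each). Of the 11711 gains at day 14, 5654 matched a region of that table (reciprocal overlap of 50%), and 4076 of these (72.1%) were higher and 83 lower at 24 hours. The 4076 make up 30.3% of the regions higher at 24 hours. Only regions with a peak in that table can match, and a region weak in DMSO can hold one through its trametinib libraries. The share of matched gains that were higher therefore leans upward. Of the 11707 losses, 9077 matched, 5781 (63.7%) were lower and 524 higher at 24 hours, and the 5781 make up 44.1% of the regions lower at 24 hours. Over all matched regions 30.3% were higher and 28.6% lower at 24 hours.

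Among listed loci, 33 of the 47 strongest regions with a 2-fold change matched a region at 24 hours. There 27 were called in the same direction, none in the opposite one and 6 did not pass. NT5E had a log2 fold change of -5.14 ± 0.21 at day 14 and -4.58 ± 0.20 at 24 hours, and DUSP4 had 1.84 ± 0.19 and 1.70 ± 0.15. CDH2 had -3.55 ± 0.24 at day 14 and -0.79 ± 0.14 at 24 hours, FOSL1 -2.85 ± 0.18 and -0.92 ± 0.15. The 6 that did not pass at 24 hours were EPHA4 (2.72 ± 0.17 at day 14, 0.18 ± 0.20 at 24 hours), CDKN1A (1.15 ± 0.14 and -0.0049 ± 0.15), VEGFA (1.41 ± 0.14 and -0.16 ± 0.16), CDH1 (1.39 ± 0.14 and 0.20 ± 0.15), FGFR3 (1.75 ± 0.18 and 0.20 ± 0.21) and ITGA6 (1.22 ± 0.14 and 0.33 ± 0.15). Among smaller changes, ETV5 was higher at day 14 (0.71 ± 0.14) and lower at 24 hours (-1.75 ± 0.15). Whether the comparisons differ was not tested.

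**Figure D5:**
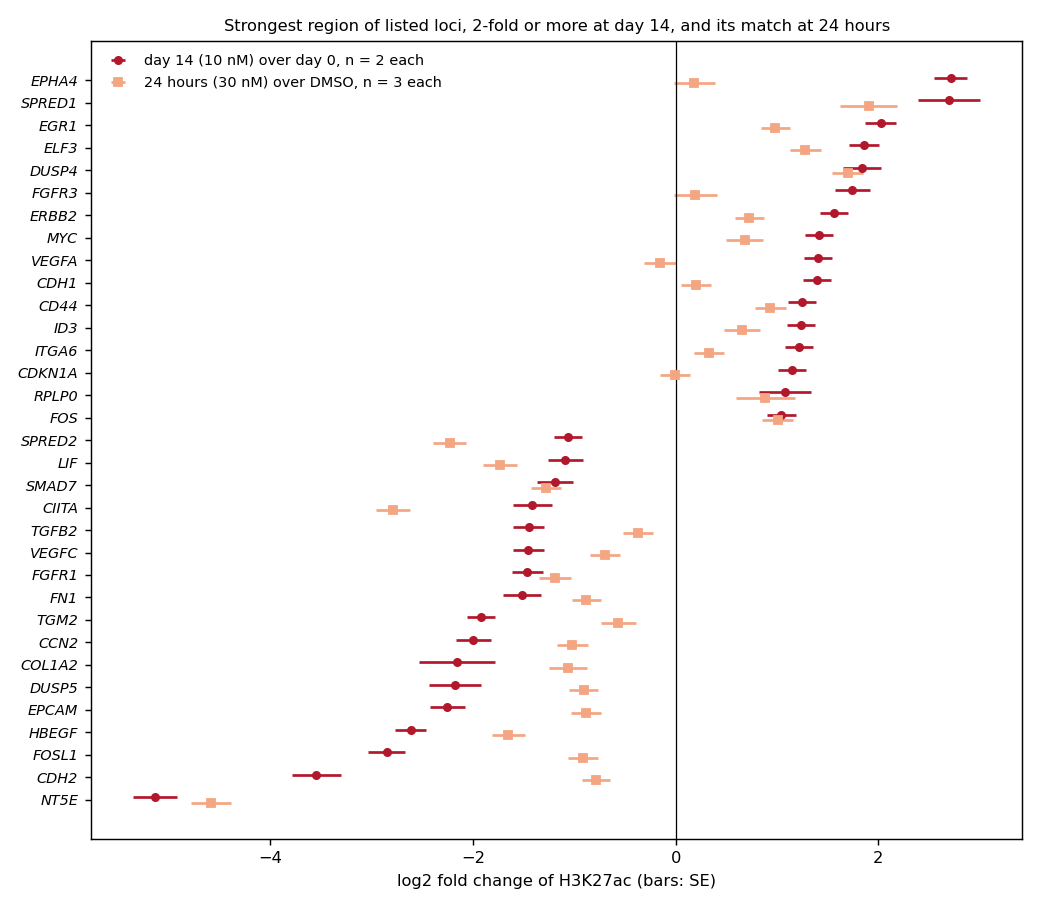
Log2 fold change of H3K27ac with its SE at the strongest regions of 33 listed loci in POS cells, for day 14 at 10 nM over day 0 (dark red circles, n = 2 each) and for 24 hours at 30 nM over DMSO (light squares, n = 3 each). Of the 33 regions, 27 were called in the same direction at 24 hours and 6, among them EPHA4, CDKN1A and VEGFA, did not pass there.

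All 15 named losses matched a region at 24 hours and were lower there, by log2 fold changes of -4.58 to -0.56, and 11 of the 12 named gains with a match were higher. The RNF185 region was the exception, with 0.40 at 24 hours against 5.71 at day 14. The matched gains had 1.45 to 5.60 CPM in DMSO, so their matches lean to regions marked after 24 hours and their direction is a description. In NEG cells at day 14, where 48.6% of 28179 regions were called, 24.8% higher and 23.8% lower, 12 named losses and 1 named gain had a match. Of these losses 9 were lower in NEG, and 1 was higher. Over all 2-fold changes, 1359 of 11711 gains and 5894 of 11707 losses of POS matched a NEG region, of which 57.7% of gains were higher in NEG and 43.7% of losses lower. The share of gains has the same limit, since a match needs a peak in the NEG table. Untreated POS and NEG cells differed in most regions (76.5% of 57023 called, 38.6% higher in POS and 38% lower). Of the matched day 14 gains 63.6% were higher in POS than in NEG before treatment, and of the matched losses 56.5%, against 58.1% of all matched regions.

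Changes were spread over all chromosomes with unequal balance. Chromosome 22 had 50.3% of 712 regions higher and 26.1% lower, and chromosome 19 had 48.1% of 878 higher and 21.6% lower. Chromosome 8 leaned to losses, with 34.2% of 2229 regions higher and 46.3% lower, as did chromosome 3 with 35.3% and 43.3%. Of 555 windows of 5 Mb with at least 20 regions, the one with the lowest median was 85 to 90 Mb on chromosome 6, which holds NT5E, with 37 of 55 regions lower, 10 higher and a median log2 fold change of -1.63. The highest median, 1.23, was at 40 to 45 Mb on chromosome 14, with 12 of 20 regions higher and 4 lower. These shares are descriptions, and DNA copy number was not measured here.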

How the data were processed

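For the H3K27ac ChIP-seq libraries, the submitters' processing notes name hg19, cutadapt 1.12, STAR 2.5.2b, MACS2, featureCounts and DESeq2, with no roles or settings. The authors deposited raw counts per region, a table of 1001-base regions for each comparison. Their DESeq2 table of log2 fold changes and adjusted p-values was also deposited and is quoted where named. JUNB regions are the authors' deposited union for untreated POS and NEG cells.

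Counts were tested with edgeR 4.0.16 (R 4.3.3) by glmQLFit and glmQLFTest, with TMM factors, filterByExpr at a minimum count of 10 and Benjamini-Hochberg adjustment over all tested regions. Fold changes used a prior count of 0.125, and the SE is the log2 fold change divided by the square root of F. Levels are CPM with TMM factors, comparable only within a table. Regions of different tables were matched at a reciprocal overlap of 50%. Simulated counts were made for the day 14 comparison over 44304 regions. For 2-fold and 4-fold changes, 50 regions were raised and 50 lowered, and all others were left unchanged. Of these, 98% of 4-fold and 68% to 72% of 2-fold changes were recovered. Far more regions changed in the data, so these rates need not hold there.

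Strongest changes are the first 15 each way by size among called regions with a mean log2 CPM at or above the median, whose libraries did not overlap, at most 1 per 250 kb. Loci are listed genes' hg19 spans from general knowledge with 20 kb on either side. No hg19 annotation was used, and the order and chromosome of all 165 spans matched RefSeq's GRCh38.p14 gene table. A locus name gives position only, and some listed loci are counted but not reported here by name. Members, lists and tests were chosen with earlier results of these data known. Alternatives were other scalings, filters and prior counts, DESeq2 1.42.0, a replicate block, leaving out each library, and other flanks and gaps. Same-numbered replicates did not deviate together (r = 0.0258 between days).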

Additional observations from a re-analysis of the deposited data

Results flagged for a closer look

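Of 140 named regions, 65 had a match in NEG, and 34 of these were called with a change of 2-fold or more in POS. Of the 34, 5 moved one way in every POS library and the other way in every NEG library between day 14 and day 0. Over all such changes with a match, 689 of 5894 POS losses (11.7%) were called higher in NEG and 78 of 1359 POS gains (5.74%) were called lower there. The 5 were counted by their libraries, called in NEG or not, so these shares are not a like measure. The share counted by libraries over all such changes was not computed. The difference between POS and NEG was not tested, and the cause was not tested. At chr3:139021078-139022079 the log2 fold change was -4.90 ± 0.21 (SE) in POS and 0.52 ± 0.13 in NEG, where the level was 76.4 ± 8.11 CPM at day 14 and 52.2 ± 9.60 CPM at day 0 (SD, n = 2 each) and edgeR's quasi-likelihood test gave an adjusted p of 0.00057. The strongest region at MYC, chr8:128772598-128773599, had 1.41 ± 0.14 in POS and -0.28 ± 0.09 in NEG (201 ± 11.3 CPM at day 14, 243 ± 13.6 CPM at day 0, edgeR adjusted p = 0.0068). In the other three the NEG change did not pass. CCN2 had -2.0 ± 0.17 in POS and 0.19 ± 0.12 in NEG, CD44 had 1.25 ± 0.14 in POS and -0.55 ± 0.36 in NEG, and the region beside ACTB had -2.74 ± 0.22 in POS and 0.57 ± 0.37 in NEG.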

How the results depend on the processing

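All 30 named gains and losses kept their direction and call under other scalings, filters and prior counts, DESeq2, the replicate block and without each library. The 34449 calls of the day 14 comparison became 27153 with DESeq2, 26808 of 32475 tested regions at a minimum count of 50, 25078 with housekeeping factors and 16904 when tested against a 2-fold change (8498 higher, 8406 lower). Leaving out each library gave 29158 to 34804. With the replicate block there were 33844 calls, and 28390 at 24 hours, 13634 in NEG and 37187 for POS against NEG, so the pairing changed no count by over 1.5 times. Same-numbered libraries were not taken as paired, with r = 0.0258 at day 14 against day 0, -0.0159 to 0.375 at 24 hours, -0.00734 in NEG and -0.0523 to -0.0517 for POS against NEG.

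In NEG at day 14, DESeq2 called 7490 regions (3892 higher, 3598 lower), against 13699 (6997, 6702), and the cause was not tested. Untreated POS against NEG scaled by total counts had 20132 regions higher and 23244 lower, against 21995 and 21650. No strongest region of a locus reversed under these settings. With the level taken as the mean CPM, an alternative chosen after the data were seen, 2 of the named gains and 6 of the named losses were named again, and the strongest regions of 8 loci changed. Of these loci GRHL2 had -0.45 against 0.20 and COL11A1 -1.03 against 0.49 on the log2 scale. With 50 kb on either side, receptor tyrosine kinases had 57 regions higher and 18 lower, ERK targets 16 and 47, and TGF-beta and YAP loci 13 and 48. Depth limits weak regions most, since the smaller day 0 library held 3201383 counts. The counts cover H3K27ac regions called by the authors and not the whole genome.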
